A study of Mus musculus with 16 samples.

Results

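The dermal papilla is the cluster of specialised mesenchymal cells enclosed by the base of the hair follicle. Here 8 genes known from this cluster (Corin, Vcan, Alpl, Sox2, Rspo3, Sostdc1, Hhip and Crabp1) were followed in mouse skin in which a telomerase transgene was switched off. They were chosen by symbol: every probe set of the array annotated to 1 of these symbols was taken, which gave 20 of the 45101 probe sets of the table. Of the 20, 12 passed the filter on low signal, with at least 1 for each of the 8 genes, among 25563 probe sets and 12580 genes that passed in all. The other 8 (5 of Vcan, 2 of Hhip and 1 of Rspo3) did not pass, and none of them exceeded an intensity of 31.7 on any array.

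All samples were dorsal skin biopsies of iK5-TERT mice at day 60, and the labels give their hair follicles as being in an anagen (growth phase) that the TERT transgene had induced. The hair genes of 1 mouse, TERT-off replicate 1, were low already at 0 h and go against that label. These mice carry K5-tTA and tetop-TERT, so that the keratin 5 promoter drives the transgene in basal keratinocytes and the outer root sheath, and doxycycline silences it. The papilla itself is therefore not the site of the transgene. Every mouse had received doxycycline at 5 mcg/ml in its drinking water during development, until it was withdrawn after birth. TERT-off mice were then injected with doxycycline (8 mcg/g), whereas TERT-on mice were injected with the PBS vehicle. There were 2 mice per cohort, biopsied at 0, 6, 12 and 24 h, and 1 Affymetrix array per biopsy (16 arrays). The 0 h biopsies of TERT-off mice were treated as preceding the injection, as the study's methods describe. The labels number biological replicates 1 and 2 at each time, and the study describes serial biopsies, but neither says which arrays came from the same mouse. Arrays with the same number and cohort were assumed to be 1 mouse biopsied repeatedly, and every count of mice below rests on that assumption.

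By way of background, the papilla instructs the epithelial matrix cells around it to divide and to build the hair shaft, through secreted Wnt, FGF and BMP regulators and their inhibitors. In anagen it is large and rich in matrix and alkaline phosphatase, and in telogen, the resting phase, it shrinks to a small ball below the resting follicle. None of the 8 genes is restricted to it: versican and Crabp1 are also found in other dermal fibroblasts, Sostdc1 in follicle epithelium, and Sox2 in Merkel cells. In whole skin, fewer cells of a type and less RNA per cell cannot be told apart.

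Some facts on the whole series bear on the members. Tert was lower on all 6 TERT-off arrays of 6 to 24 h (8.32 to 16.1) than on the 6 TERT-on arrays (22.6 to 64.6). In log2 units, it fell by 3.97 relative to 0 h in TERT-off mice (SE 0.34, limma adjusted p = 0.00046), and it also fell by 2.75 in TERT-on mice (SE 0.34, adjusted p = 0.00893). The change in TERT-off minus that in TERT-on mice was -1.23 (SE 0.48, limma adjusted p = 0.332), which did not pass at an adjusted p under 0.05. Hair shaft keratins were already low in TERT-off replicate 1 at 0 h, at a mean log2 intensity of 4.52 over the 8 keratins with a value on all 16 arrays, against 10.61 in TERT-off replicate 2 and 10.28 and 8.77 in TERT-on replicates 1 and 2. At 0 h the array of TERT-on replicate 1 had a 5′ to 3′ ratio of Gapdh signal of 0.0599, against 0.977 to 1.12 on the other 15. That array also held the highest intensity of Tert (357).

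Intensities below are those deposited. Differences are on the log2 scale, TERT-off minus TERT-on unless stated otherwise, from a limma fit over all 25563 probe sets with values under 7.71 raised to that floor. A difference was called where the Benjamini-Hochberg adjusted p was under 0.05. The naming rule picked 52 called genes of further lists. Of these, 42 stayed called with 1 value per mouse and 33 with no filter. With a mouse left out its cohort keeps 1 array per time, so its spread is not measured. Only sizes of differences are read from such fits. Averaged over 6, 12 and 24 h, 1 of the 8 genes was called lower in TERT-off skin and 0 were called higher (12.5%), whereas 29.5% of all genes were called in either direction, 12.6% lower and 16.9% higher. The called gene was Corin. The median difference of the 8 genes was -0.26, against 0.04 over all genes, and 7 of the 8 estimates lay below 0. At an unadjusted p under 0.05 the count was also 1, against 43.9% of all genes. For 0 of the 8 genes, and for 4.83% of all genes, the 6 TERT-off arrays of 6 to 24 h all lay below the 6 TERT-on arrays.

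**Figure D1:**
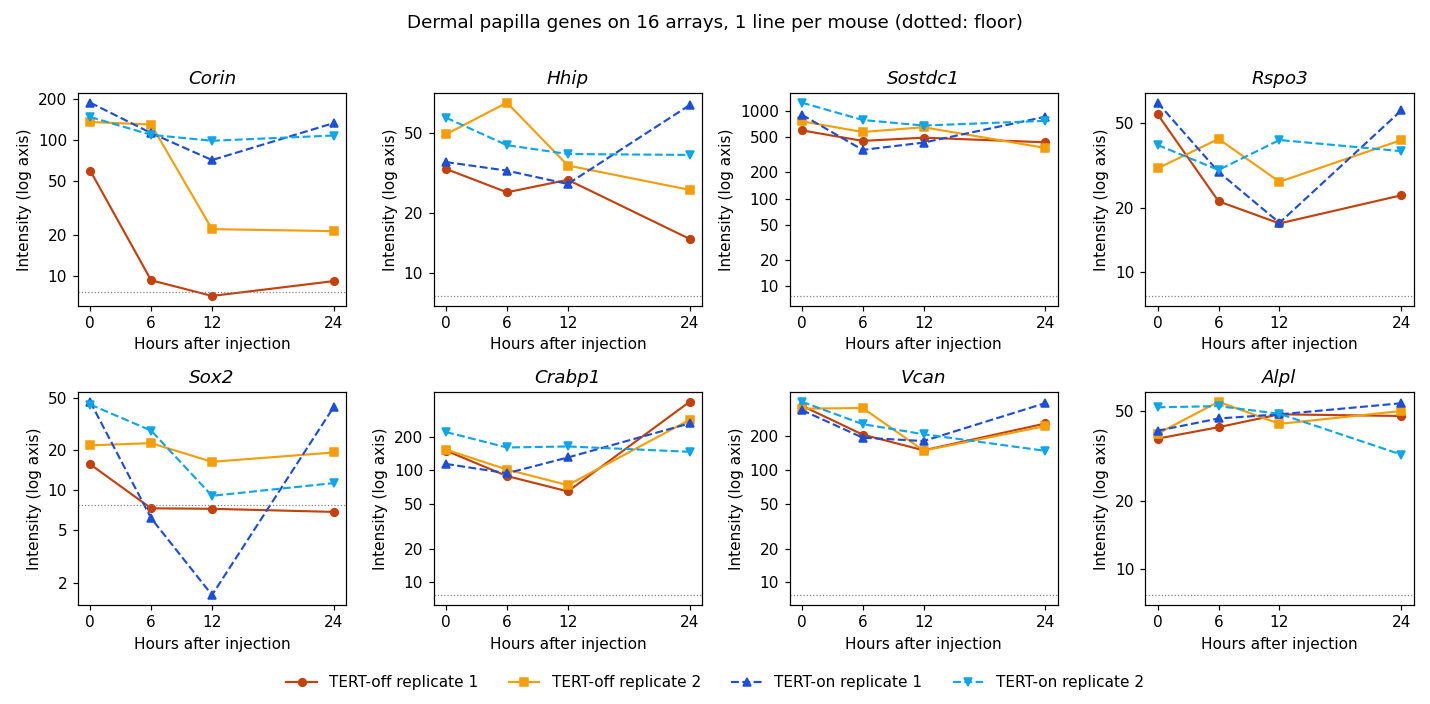
Intensity of the 8 genes (log axis) by hours since injection, each mouse as a line (TERT-off solid, TERT-on dashed) and the floor of 7.71 as a dotted line. Corin was at 7.16 to 22.1 on the TERT-off arrays of 12 and 24 h and at 70.8 to 132 on the TERT-on arrays, with no overlap at these times. At 0 h, before the injection, Corin was at 59.3 and 135 in TERT-off mice and at 187 and 146 in TERT-on mice, also without overlap. At 6 h TERT-off replicate 2 lay above both TERT-on mice for Corin.

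Corin encodes a membrane serine protease of papilla cells that limits agouti signalling to the pigment cells of the hair. It was read by 1 probe set. In TERT-off replicate 1 its intensity was 59.3, 9.32, 7.16 and 9.19 at 0, 6, 12 and 24 h, and in TERT-off replicate 2 it was 135, 129, 22.1 and 21.4. In TERT-on replicate 1 it was 187, 112, 70.8 and 132, and in TERT-on replicate 2 it was 146, 108, 98.1 and 107. Both TERT-off mice thus ended low, but replicate 1 was low by 6 h and replicate 2 by 12 h. Taken over 6 to 24 h, the cohorts overlapped because of the single 6 h array of TERT-off replicate 2. At 12 and 24 h they did not overlap, which also held, in the same direction, for 14.4% of all genes. Both TERT-off mice lay below both TERT-on mice already at 0 h, before the injection, as for 18% of all genes. The mean over 6 to 24 h was 33.0 ± 47.5 in TERT-off mice and 105 ± 20.1 in TERT-on mice (SD over 6 arrays of 2 mice each). The log2 difference was -2.48 (SE 0.54, 95% interval -3.66 to -1.29, limma adjusted p = 0.00927), or 5.56-fold lower, with 1 TERT-off array raised to the floor.

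The order of the 8 groups for Corin ran from TERT-on at 0 h (mean of 2 mice 167) over TERT-on at 24 h (119.8), TERT-on at 6 h (110.1), TERT-off at 0 h (97.0), TERT-on at 12 h (84.5) and TERT-off at 6 h (69.2) to TERT-off at 24 h (15.3) and TERT-off at 12 h (14.6). Apart from the highest group, each group overlapped with its next lower neighbour. Its differences at the single times 0, 6, 12 and 24 h were -0.89, -1.67, -2.68 and -3.09. None of these was called (limma adjusted p = 0.803, 0.29, 0.0923 and 0.0909). Of the 8 genes 0 passed at any of the 4 times, against 0.0397, 1.74, 2.57 and 2.42% of all genes in the same order of times. With an unadjusted p under 0.05 the counts were 0, 0, 2 and 3 of the 8 genes, against 7.92, 23.5, 29.9 and 22.7% of all genes. Both TERT-off mice lay below both TERT-on mice for 4 of the 8 genes at 0 h (18% of all genes), for 3 at 12 h (27.8%) and for 3 at 24 h (28.2%), and above both for 1 at 24 h (29.7%).

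The call of Corin depended on the error used, and the size of its difference on the TERT-off mice. With 1 value per mouse its adjusted p was 0.0551 (limma). Without TERT-on replicate 1 or TERT-on replicate 2 the differences were -2.50 and -2.46. Without TERT-off replicate 1, the mouse with few hair keratins at 0 h, the difference was -1.39, and without TERT-off replicate 2 it was -3.56. Each such fit leaves 1 array per time in 1 cohort, whose spread is then not measured. No p-value is therefore given for them.

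Among all 12580 genes, the 3 whose log2 intensity followed that of Corin most closely over the 16 arrays were Myb (Pearson r = 0.980), Dlx2 (r = 0.974) and Adamts20 (r = 0.968). Myb and Dlx2 encode transcription factors, Dlx2 being among the hair matrix regulators listed below, and Adamts20 encodes a protease that cuts versican. The arrays share 4 mice, so these values describe a likeness only. The promoter of Corin is shown because Corin alone was called lower, and it was searched for letters bound by factors that act in the papilla and matrix, on both strands. These were the TCF/LEF letters CTTTGAT or CTTTGAA or CTTTGTT or CTTTGTA, the E-box CACGTG, the GLI letters GACCACCCA and the SOX/TCF core ACAAAG. Matches of the TCF/LEF and SOX/TCF letters can overlap. The 300 bases of the RefSeq table (GRCm38.p6, chr5:72504491-72504790, minus strand, 250 bases before the start and 50 after it) hold none of them, hence no capitals.
Corin: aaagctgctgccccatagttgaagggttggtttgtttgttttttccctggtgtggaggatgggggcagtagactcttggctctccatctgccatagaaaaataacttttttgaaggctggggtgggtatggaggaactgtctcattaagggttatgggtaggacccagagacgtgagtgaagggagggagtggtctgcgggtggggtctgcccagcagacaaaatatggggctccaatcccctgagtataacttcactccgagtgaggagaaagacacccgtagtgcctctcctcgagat
Of 32851 promoters of this length, 16.9% held the TCF/LEF letters, 7.15% the E-box, 0.253% the GLI letters and 18.7% the SOX/TCF core.

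**Figure D2:**
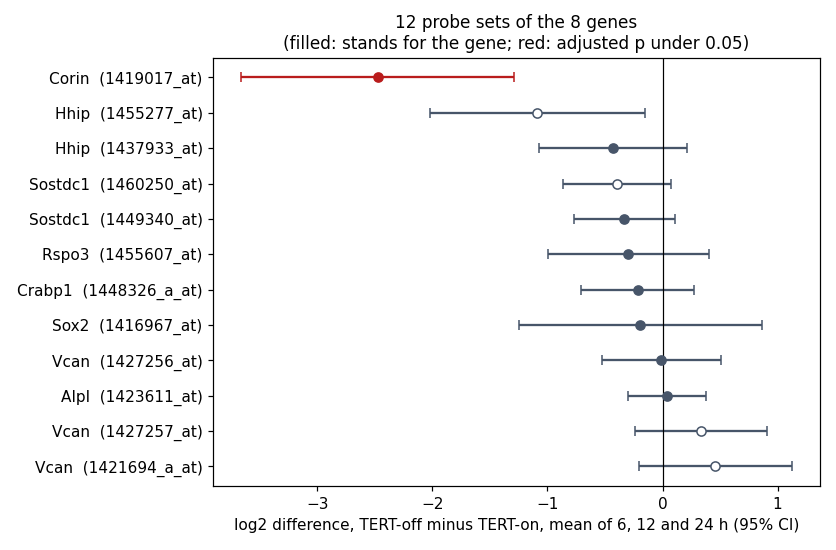
Fitted difference over 6 to 24 h (log2, TERT-off minus TERT-on) with its 95% interval for the 12 probe sets of the 8 genes (filled: the probe set standing for its gene; open: a further probe set; red: adjusted p under 0.05). Corin lies at -2.48, and the intervals of the 8 filled points other than Corin's include 0. The open point of Hhip has an interval of -2.02 to -0.15, which excludes 0, but was not called.

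Vcan and Alpl are the classical marks of an active papilla: versican is a large proteoglycan of the papilla matrix, and alkaline phosphatase is the enzyme stained to find the papilla. Vcan was read at 375, 207, 150.2 and 261 in TERT-off replicate 1 and at 353, 358, 149.2 and 247 in TERT-off replicate 2 (0, 6, 12 and 24 h). It was at 343, 195, 182 and 396 in TERT-on replicate 1 and at 407, 257, 209 and 148 in TERT-on replicate 2. The cohorts overlapped at 0, 6 and 24 h, both TERT-off mice were the lower at 12 h, and there was no return to the 0 h value in 3 of the 4 mice. Vcan averaged, over 6 to 24 h, 229 ± 78.6 in TERT-off mice and 231 ± 88.3 in TERT-on mice (SD, 6 arrays of 2 mice each). At 12 h the difference was -0.38 (limma adjusted p = 0.555). Averaged over the 3 times it was -0.01 (SE 0.24, 95% interval -0.52 to 0.50, limma adjusted p = 0.98). The other fitted probe sets of Vcan gave 0.46 (adjusted p = 0.285) and 0.34 (adjusted p = 0.366), which turns the sign of the estimate without a call. Relative to 0 h, Vcan was lower by a log2 value of -0.74 in TERT-off mice (limma unadjusted p = 0.0299, adjusted p = 0.249) and of -0.77 in TERT-on mice (unadjusted p = 0.0253, adjusted p = 0.177). Neither passed, and the changes differed by 0.03 (adjusted p = 0.981).

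Alpl varied least of the 8, from 32.2 to 55.2 over the 16 arrays, not far from the filter's level of 34.4. Whether so low a signal can show a change of Alpl in the papilla was not tested. It was at 37.9, 42.6, 48.6 and 47.8 in TERT-off replicate 1, at 39.9, 55.2, 44.1 and 50.2 in TERT-off replicate 2, at 41.1, 46.6, 48.6 and 54.4 in TERT-on replicate 1 and at 52.2, 52.8, 48.8 and 32.2 in TERT-on replicate 2. The lowest array was that of TERT-on replicate 2 at 24 h. Alpl averaged 48.1 ± 4.52 in TERT-off mice and 47.2 ± 7.90 in TERT-on mice over 6 to 24 h, a log2 difference of 0.04 (SE 0.15, 95% interval -0.30 to 0.38, limma adjusted p = 0.871). Its sign turned when the arrays were centred on their medians (-0.02) or quantile normalized (-0.01).

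Genes of the versican matrix, meaning hyaluronan synthases, link proteins and the proteases that cut versican, gave 1 lower and 3 higher of 13 fitted. That is 30.8%, against 29.5% of all genes, and the median was 0.21. Adamts20 was lower at -3.25 (SE 0.71, adjusted p = 0.00919). Adamts5 and Adamts15 were higher at 1.04 (SE 0.14, adjusted p = 0.0018) and 0.87 (SE 0.18, adjusted p = 0.00753), all by limma. The other 3 proteases fitted (Adamts1, Adamts4 and Adamts9) were not called.

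Sox2 encodes a transcription factor that marks the papilla of some pelage hair types. Its probe set lay low, and 0 TERT-off arrays but 3 TERT-on arrays were above the filter's level. In TERT-off replicate 1 it was at 15.7, 7.32, 7.26 and 6.88, and in TERT-off replicate 2 at 21.9, 22.7, 16.4 and 19.3. In TERT-on replicate 1 it was at 46.6, 6.17, 1.62 and 42.8, and in TERT-on replicate 2 at 44.4, 28.3, 9.10 and 11.4. Both TERT-off mice were thus below both TERT-on mice at 0 h, the cohorts overlapped at every later time, and the TERT-on arrays spread over the wider range. Over 6 to 24 h the means were 13.3 ± 7.04 in TERT-off mice and 16.5 ± 15.7 in TERT-on mice, with a difference of -0.19 (SE 0.48, 95% interval -1.25 to 0.86, limma adjusted p = 0.795). On 3 TERT-off and 2 TERT-on arrays it lay under the floor, where values have no order. Relative to 0 h the log2 value was -0.60 in TERT-off mice (adjusted p = 0.635) and -1.70 in TERT-on mice (limma unadjusted p = 0.0173, adjusted p = 0.152), neither of which passed. The 0 h array with the low Gapdh ratio held the highest value of Sox2, and in TERT-on replicate 2 alone the change was -1.64. Its RefSeq promoter (GRCm38.p6, chr3:34649745-34650044, plus strand) is printed because it held the only TCF/LEF match among the 6 genes with a promoter in the table, CTTTGTA on the opposite strand at position -207, overlapping ACAAAG at -206 (both in capitals; positions count from the start).
Sox2: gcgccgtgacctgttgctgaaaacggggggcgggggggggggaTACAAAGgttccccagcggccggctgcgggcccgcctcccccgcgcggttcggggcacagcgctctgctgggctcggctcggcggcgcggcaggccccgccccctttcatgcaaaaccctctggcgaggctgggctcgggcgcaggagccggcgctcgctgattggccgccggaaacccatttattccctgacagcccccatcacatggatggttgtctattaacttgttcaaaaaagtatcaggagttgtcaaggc
Alpl, with 2 promoters listed, held ACAAAG in each. Rspo3 and Sostdc1 had no entry.

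Other SOX and stem cell factors gave 3 lower and 1 higher of 10 fitted (40%, against 29.5% of all genes), with a median of -0.24. Sox5 was at -1.16 (SE 0.33, adjusted p = 0.0257), Sox9, a factor of the follicle stem cells and outer root sheath, at -0.78 (SE 0.20, adjusted p = 0.0173), and Sox6 at 1.04 (SE 0.30, adjusted p = 0.0252). Of the 6 Merkel cell genes listed, which bear on the other skin source of Sox2, 3 were fitted and 1 of these, the keratin gene Krt8, was lower at -1.04 (SE 0.35, limma adjusted p = 0.0475). That is 33.3% of those fitted, against 29.5% of all genes. The highest intensity of Krt8 was 37.4, little above the filter's level of 34.4, and its call was lost with no filter. With a mouse left out its difference ran from -1.11 to -0.96. The defining Merkel factor Atoh1 reached no more than 11.7 on any array.

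Rspo3, Sostdc1 and Hhip encode secreted or membrane-bound regulators of signals that pass between papilla and matrix. Rspo3 encodes R-spondin 3, a ligand that strengthens Wnt signalling through LGR receptors. It was at 55.0, 21.5, 16.9 and 22.9 in TERT-off replicate 1 and at 30.7, 42.2, 26.5 and 41.6 in TERT-off replicate 2. It was at 62.4, 29.5, 17.0 and 57.4 in TERT-on replicate 1 and at 39.5, 30.1, 41.7 and 36.9 in TERT-on replicate 2. Of the 4 mice, 3 were lowest at 12 h, TERT-on replicate 2 being the exception, and the cohorts overlapped at every time. The mean was 28.6 ± 10.8 in TERT-off mice and 35.4 ± 13.6 in TERT-on mice over 6 to 24 h, with a difference of -0.30 (SE 0.32, 95% interval -1.0 to 0.40, limma adjusted p = 0.518). Without TERT-off replicate 1 its sign turned, to 0.12. In the R-spondin pathway 3 of 8 fitted genes were lower and 0 higher (37.5%, against 29.5% of all genes called and 12.6% lower), with a median of -0.47. These were Znrf3 (-0.70, SE 0.22, adjusted p = 0.0348) and Rnf43 (-0.52, SE 0.17, adjusted p = 0.0439), the membrane ubiquitin ligases that R-spondins remove, and the receptor gene Lgr4 (-0.44, SE 0.14, adjusted p = 0.0392). All 3 calls were lost with 1 value per mouse and with no filter. Without TERT-off replicate 1 the differences were -0.46 for Znrf3, -0.26 for Rnf43 and -0.17 for Lgr4, and without TERT-off replicate 2 they were -0.93, -0.78 and -0.72.

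Sostdc1 encodes ectodin, a secreted inhibitor of BMP and Wnt signals. In TERT-off replicate 1 it was at 603, 457, 498 and 440.3, and in TERT-off replicate 2 at 765, 578, 655 and 379. In TERT-on replicate 1 it was at 911, 361, 437 and 863, and in TERT-on replicate 2 at 1251, 792, 685 and 775. At 24 h, and already at 0 h before the injection, both TERT-off mice were below both TERT-on mice, whereas at 6 and 12 h the cohorts overlapped. Its mean over 6 to 24 h was 501 ± 100.04 in TERT-off mice and 652 ± 206 in TERT-on mice, with a difference of -0.33 (SE 0.20, 95% interval -0.77 to 0.11, limma adjusted p = 0.239). At 24 h the difference was -1.0 (SE 0.32, unadjusted p = 0.00967, adjusted p = 0.119), and the other probe set gave -1.09 (adjusted p = 0.116). Neither was called. The 0 h difference was -0.65 (adjusted p = 0.633), with the highest value of Sostdc1 on the TERT-on arrays before the injection. Relative to 0 h the log2 value was -0.46 in TERT-off mice (adjusted p = 0.376) and -0.78 in TERT-on mice (unadjusted p = 0.01, adjusted p = 0.127). The inhibitors of BMP signalling gave 3 lower and 4 higher of 8 fitted (87.5%, against 29.5% of all genes), with a median of 0.19. The pseudoreceptor gene Bambi was at -3.09 (SE 0.66, adjusted p = 0.00848) and the intracellular inhibitor gene Smad7 at -1.32 (SE 0.26, adjusted p = 0.00637), while the secreted antagonist gene Grem1 was at 1.03 (SE 0.18, adjusted p = 0.00448).

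Hhip encodes the hedgehog-interacting protein, a membrane protein that binds and holds back hedgehog ligands and is itself transcribed in cells that receive them. In TERT-off replicate 1 it was at 33.2, 25.4, 29.3 and 14.9, and in TERT-off replicate 2 at 49.5, 71.2, 34.6 and 26.1. In TERT-on replicate 1 it was at 36.0, 32.6, 27.9 and 69.3, and in TERT-on replicate 2 at 60.0, 43.7, 39.5 and 39.0. The cohorts overlapped up to 12 h and lay apart at 24 h, where both TERT-off mice were lower. Over 6 to 24 h the means were 33.6 ± 19.5 in TERT-off mice and 42.0 ± 14.5 in TERT-on mice, with a difference of -0.43 (SE 0.29, 95% interval -1.07 to 0.21, limma adjusted p = 0.298). At 24 h the difference was -1.40 (SE 0.47, unadjusted p = 0.0124, adjusted p = 0.132). The other fitted probe set of Hhip, with 0 TERT-off arrays and 3 TERT-on arrays above the filter's level, gave -1.09 over 6 to 24 h (SE 0.43, adjusted p = 0.0812) and -2.11 at 24 h (adjusted p = 0.123). None of these was called. For the probe set standing for Hhip the difference over 6 to 24 h was -0.85 without TERT-off replicate 2 and -0.0061 without TERT-off replicate 1.

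In the hedgehog pathway 1 of 10 fitted genes was lower and 3 were higher (40%, against 29.5% of all genes), with a median of -0.38. Gli3, a transcription factor of the pathway, was at -0.76 (SE 0.22, adjusted p = 0.0249), and the co-receptor genes Cdon and Gas1 were at 1.21 (SE 0.21, adjusted p = 0.00459) and 0.57 (SE 0.18, adjusted p = 0.0383). The ligand gene Shh, made by the matrix, was at -2.49 (SE 0.85, adjusted p = 0.0506), and Gli1 and Ptch1, which like Hhip are induced by hedgehog ligands, were at -0.71 (adjusted p = 0.153) and -0.64 (adjusted p = 0.135). These 3 were added after their values had been seen, and none was called.

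**Figure D3:**
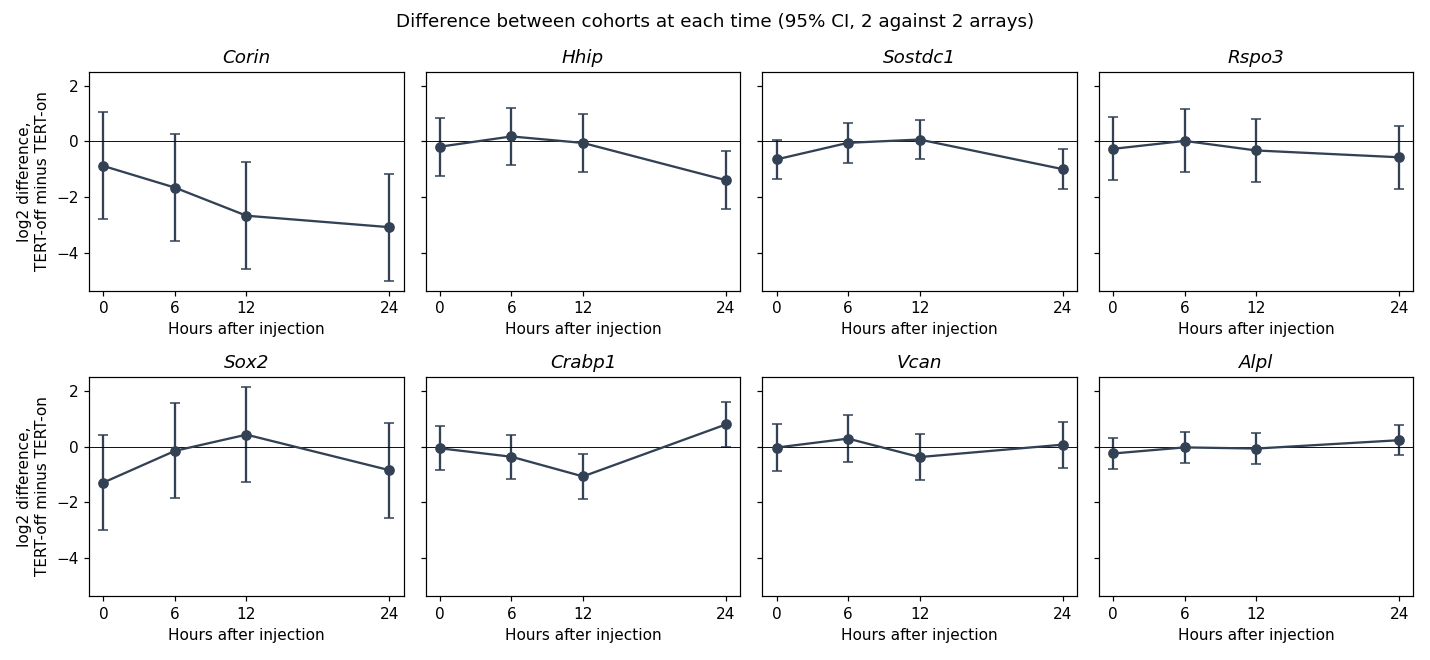
Difference between the cohorts (log2, TERT-off minus TERT-on) at 0, 6, 12 and 24 h for the 8 genes, with 95% intervals from the limma fit (2 arrays against 2). Corin ran from -0.89 at 0 h to -3.09 at 24 h, Sostdc1 and Hhip lay at -1.0 and -1.40 at 24 h, and Crabp1 lay at -1.08 at 12 h and at 0.79 at 24 h.

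Crabp1 encodes a cytoplasmic protein that binds retinoic acid and is found in papilla cells and in other dermal fibroblasts. In TERT-off replicate 1 it was at 149.6, 88.8, 64.8 and 408, and in TERT-off replicate 2 at 153, 101.4, 73.7 and 282. In TERT-on replicate 1 it was at 114, 94.1, 129.9 and 262, and in TERT-on replicate 2 at 219, 159.6, 163 and 146. Both TERT-off mice followed the same course, lowest at 12 h and highest at 24 h, whereas in the TERT-on cohort replicate 1 was highest at 24 h and replicate 2 was lowest there. In the order of the 8 groups, TERT-off at 24 h was the highest (mean of 2 mice 345) and TERT-off at 6 and 12 h the lowest (95.1 and 69.2), and the highest and the lowest group each lay apart from its neighbour. Averaged over 6 to 24 h these courses cancelled, with 169.9 ± 142 in TERT-off mice and 159 ± 56.3 in TERT-on mice and a difference of -0.22 (SE 0.23, 95% interval -0.71 to 0.28, limma adjusted p = 0.504). The difference was -1.08 at 12 h (SE 0.36, unadjusted p = 0.0124, adjusted p = 0.0973) and 0.79 at 24 h (SE 0.36, unadjusted p = 0.0502, adjusted p = 0.255), and neither was called.

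The comparison of 24 h with the mean of 6 and 12 h was added after these values had been seen and because of them, so its test describes the course of Crabp1 again and adds no evidence for it. In TERT-off mice Crabp1 was higher at 24 h by 2.07 (SE 0.30, 95% interval 1.4 to 2.73, limma adjusted p = 0.0226), or 4.19-fold, and by 2.43 and 1.71 in the single mice. Nothing is read from the count in this comparison, 1 of the 8 genes, beside 0.31% of all genes (0.262% higher), or from the 2 with an unadjusted p under 0.05 (13.3% of all genes). In TERT-on mice the value for Crabp1 was 0.55 (SE 0.30, adjusted p = 1), with 0 of the 8 genes and 0% of all genes called, and 1 and 3.81% at an unadjusted p under 0.05. The difference between the cohorts was 1.52 (SE 0.43, unadjusted p = 0.00429, adjusted p = 0.341), so the rise was not shown to differ between them (0 of the 8 genes and 0.111% of all genes passed, with 3 and 9.44% at an unadjusted p under 0.05). The call in TERT-off mice was lost with no filter, and with a mouse left out the value ran from 1.71 to 2.43.

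The genes whose log2 intensity followed that of Crabp1 most closely over the 16 arrays were Bnip1 (r = 0.881), 1810055G02Rik (r = 0.865) and Robo4 (r = 0.793). Enzymes, carriers and receptors of retinoic acid gave 2 lower and 3 higher of 10 fitted (50%, against 29.5% of all genes), with a median of -0.17. Aldh1a1, which makes retinoic acid, was at 1.98 (SE 0.29, adjusted p = 0.00244), Cyp26b1, which breaks it down, at 1.20 (SE 0.23, adjusted p = 0.00584), and Stra6, a retinol transporter gene, at -1.76 (SE 0.43, adjusted p = 0.0134), all by limma. The promoter of Crabp1 (RefSeq, GRCm38.p6, chr9:54764498-54764797, plus strand), printed as that of the only member called in the later comparison, held none of the letters searched.
Crabp1: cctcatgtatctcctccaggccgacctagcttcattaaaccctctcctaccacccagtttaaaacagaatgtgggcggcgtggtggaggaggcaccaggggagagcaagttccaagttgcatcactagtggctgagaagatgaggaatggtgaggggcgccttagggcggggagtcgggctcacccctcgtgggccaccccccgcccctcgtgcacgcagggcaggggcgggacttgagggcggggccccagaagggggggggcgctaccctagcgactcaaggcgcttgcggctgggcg

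How the members moved with the follicle can be followed best in TERT-off replicate 2, whose hair genes were high at 0 and 6 h and low at 12 h. In that mouse the 8 hair shaft keratins with a value on all arrays had a mean log2 intensity of 10.61, 10.30, 6.44 and 5.67 at 0, 6, 12 and 24 h, and that of 12 hair matrix regulators was 7.99, 8.26, 6.21 and 6.09. Between 6 and 12 h 3 of the 8 papilla genes were at least 2-fold lower at 12 h, against 4.56% of all genes. These were Corin (-2.55), Vcan (-1.26) and Hhip (-1.04). Rspo3 (-0.67), Sox2 (-0.47), Crabp1 (-0.46) and Alpl (-0.33) lay closer to 0, and Sostdc1 was at 0.18. The median over all genes was 0.06. Of the 17 other papilla genes listed further below, 4 were at least 2-fold lower, with a median of 0.03. From 0 to 12 h Corin was at -2.94 and -2.61 in TERT-off replicates 1 and 2 and at -1.40 and -0.58 in TERT-on replicates 1 and 2. In the same order Vcan was at -1.32, -1.24, -0.92 and -0.96, and Hhip at -0.18, -0.52, -0.36 and -0.60. At 24 h Corin stayed at -2.66 relative to 0 h in this mouse, whereas Vcan was at -0.51 and Crabp1 at 0.88.

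The same step gave other values in the other mice. In TERT-off replicate 1, whose hair shaft keratins were low throughout (4.52, 4.23, 4.25 and 4.13), 0 of the 8 genes were at least 2-fold lower at 12 h than at 6 h (1.28% of all genes), and Corin was at -2.67 relative to 0 h by 6 h already. Other follicle lists were also lower at 6 h than at 0 h in that mouse. Their mean log2 intensity went from 6.56 to 5.54 for hair matrix regulators, from 6.14 to 4.28 for inner root sheath genes and from 7.64 to 6.47 for melanocyte genes. In TERT-on replicate 1 the count was 0 (1.27% of all genes), although follicle genes were lower at 12 h there too: 12 of 12 hair matrix regulators (median -0.80) and 12 of 12 hair shaft keratins (median -0.93) lay below 0, and 7 of 8 melanocyte genes were at least 2-fold lower (median -1.61). In TERT-on replicate 2 the count was 1 (0.58% of all genes), Sox2 at -1.63, with medians of 0.04 for the hair matrix regulators and 0.07 for the hair shaft keratins. Each of these values comes from 1 array against 1 array and has no test.

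**Figure D4:**
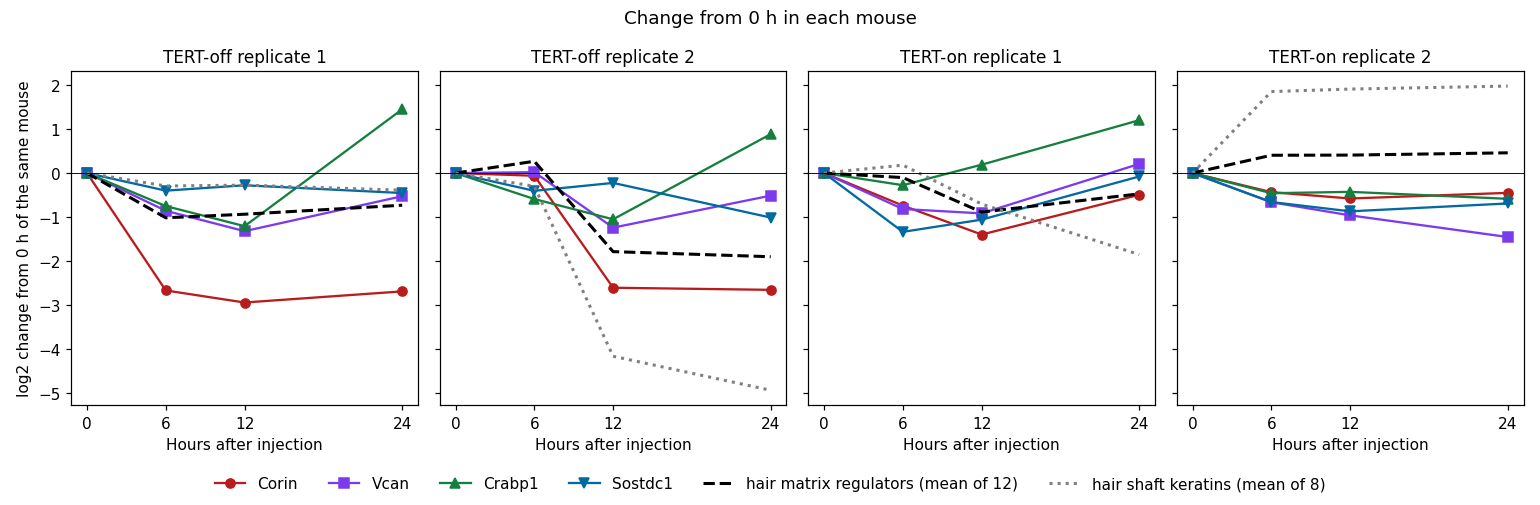
Log2 change from 0 h of the same mouse by hours since injection, in a panel for each mouse, for Corin, Vcan, Crabp1 and Sostdc1 and for the means of 12 hair matrix regulators (dashed) and 8 hair shaft keratins (dotted). In TERT-off replicate 2 Corin was at -0.06 at 6 h and -2.61 at 12 h, and in TERT-on replicate 2 at -0.43 and -0.58.

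Tested against 0 h, 0 of the 8 genes were called in TERT-off mice (0.493% of all genes) and 0 in TERT-on mice (0.183%), with 2 and 3 at an unadjusted p under 0.05 (17.8 and 19.6% of all genes). Corin was at -2.27 in TERT-off mice (SE 0.69, unadjusted p = 0.00674, adjusted p = 0.157) and at -0.68 in TERT-on mice (SE 0.69, adjusted p = 0.613). The difference of these changes was -1.59 (SE 0.98, limma adjusted p = 0.482), and 0 of the 8 genes passed this test, as did 0.00795% of all genes, with 0 members and 14.3% of all genes at an unadjusted p under 0.05. Whether Corin differed from the other members was not tested.

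Over the 16 arrays the log2 intensity of Corin correlated with that of Hhip at r = 0.742, Rspo3 at 0.627, Sox2 at 0.597, Sostdc1 at 0.596 and Vcan at 0.488, and with that of Crabp1 at 0.092 and Alpl at -0.009. The highest value among the 28 pairs was that of Sox2 with Sostdc1 (r = 0.760). These values are descriptive, since the arrays come from 4 mice and share their depth of follicle genes.

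A further 20 papilla genes from other studies were listed, of which 17 were fitted. Averaged over 6 to 24 h, 1 was lower and 4 were higher (29.4%, against 29.5% of all genes). The estimates ran from -1.51 to 1.20, with a median of 0.01. Fgf7, a growth factor gene of the papilla, was at 1.20 (SE 0.17, adjusted p = 0.00244), the leptin receptor gene Lepr at 0.91 (SE 0.27, adjusted p = 0.0297) and Ltbp1, whose product stores TGF-beta in the matrix, at 0.90 (SE 0.19, adjusted p = 0.00785). The remaining called genes, named after their values had been seen, were Prom1 (0.63, adjusted p = 0.0415) and Notum, which encodes a secreted Wnt inhibitor and was lower at -0.52 (adjusted p = 0.00845). Further below 0 than Notum, but not called, were Scube3 (-1.51, limma adjusted p = 0.0881), Wif1 (-1.06, adjusted p = 0.0795) and Rspo2 (-1.03, adjusted p = 0.1). They too were named after their values had been seen. At 24 h alone 1 of the 17 was lower and 0 were higher (5.88%, against 2.42% of all genes).

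Markers of other cells moved over the same arrays. Lower in TERT-off skin were 11 of 12 hair shaft keratins (median -4.43), 8 of 9 inner root sheath genes (median -4.83), 9 of 12 hair matrix regulators (median -2.15), among them Msx2 at -3.35 and Hoxc13 at -2.74, and 7 of 8 melanocyte genes (median -2.13). Higher were 9 of 11 dermal fibroblast genes (median 0.59), among them Pdgfra at 1.44, 6 of 8 endothelial genes (median 0.59), 8 of 8 neutrophil and monocyte genes (median 1.80), 4 of 6 adipocyte genes (median 0.66), 2 of 8 skeletal muscle genes and 2 of 4 Schwann cell genes. Bulge genes gave 1 lower and 4 higher of 9. Of all genes 12.6% were called lower and 16.9% higher over the same times. The size of the differences in these lists depended on single mice. Without TERT-off replicate 1 the medians were -2.69 for the hair shaft keratins, -2.91 for the inner root sheath genes and 1.68 for the neutrophil and monocyte genes. Without TERT-off replicate 2 they were -6.12, -6.85 and 1.81, and with a TERT-on mouse left out they kept their sign. With 1 value per mouse 4 of 12 hair shaft keratins and 5 of 9 inner root sheath genes were called lower. In the same setting 7 of 8 neutrophil and monocyte genes were called higher. At 0 h none of these lists held a called gene, although the medians of hair shaft keratins and inner root sheath genes were -1.63 and -2.41. The neutrophil genes S100a9 and S100a8 were at 2.71 and 1.94 at 0 h (limma unadjusted p = 0.00029 and 0.000475, adjusted p = 0.255 and 0.312), against 3.27 and 2.13 over 6 to 24 h. Over 6 to 24 h the mean log2 level of the hair matrix regulators ran from 5.54 to 8.26 in TERT-off mice and from 7.46 to 8.33 in TERT-on mice, that of the 10 dermal fibroblast genes with a value on all arrays from 10.55 to 11.21 in TERT-off mice and from 9.85 to 10.52 in TERT-on mice, and that of 7 such neutrophil and monocyte genes from 7.07 to 9.13 in TERT-off mice and from 6.09 to 6.89 in TERT-on mice. The part of these cells in the values of the members was not tested.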

How the data were processed

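Dorsal skin was profiled on 16 Affymetrix mouse expression arrays. The authors' deposited values are linear intensity values from dChip, where invariant-set normalization and the perfect-match minus mismatch model were applied. The build is not given in the sources used here. A single gene symbol was given for 34958 of the 45101 probe sets, several for 932 and none for 9211, and 64 control probe sets were left out. No value of a member was empty, and means of lists by array used genes with a value on all 16 arrays.

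A floor was set at the 20th percentile (7.71) before taking log2. The filter kept probe sets that exceeded the overall median (34.4) on 2 or more arrays. The probe set with the highest mean stood for its gene. A limma model (3.58.1, R 4.3.3, statmod 1.5.0) took the 8 groups as means and the mouse as random block (consensus correlation 0.0728), and moderation used the intensity trend. All p-values are two-sided, and Benjamini-Hochberg adjustment ran over 25563 probe sets. The number of arrays limits the precision, and an exact permutation test of 2 mice against 2 cannot go below p = 0.333. The fit was also run on simulated data, with independent noise on each array and no effect of the mouse. That run cannot check the p-values for serial biopsies of the same mouse.

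The 8 members and 19 further gene lists were chosen with earlier results of these data known. Named were all members, up to 3 called genes per list with the largest differences, and Tert, besides those marked as added later. The 3 genes most like a member by Pearson r were found for all members but are given for Corin and Crabp1 only. Promoters came from RefSeq. Other settings were tried for floor, filter, normalization, block, trend and probe sets per gene, and each mouse, or the 0 h array of TERT-on replicate 1, was left out. SAM, the test the study names, was not run. Figures were drawn with matplotlib 3.10.9.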

Additional observations from a re-analysis of the deposited data

How the results depend on the processing

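Corin kept its direction over 6 to 24 h under all 16 alternatives run. The count of members called lower was 1 and became 0 with 1 value per mouse. With a mouse left out no count of members is given, because the spread of its cohort is then not measured. In such fits the difference of Hhip over 6 to 24 h ran from -0.85 to -0.0061. For the same reason, the numbers of probe sets called with a mouse left out, given next, are not read as calls. They show only that the count depends on the mouse left out. Over all probe sets 6625 were called (2771 lower, 3854 higher), and 72 to 7957 with a mouse left out, the low counts being 956 when TERT-on replicate 1 and 72 when TERT-on replicate 2 was left out. Centring on array medians gave 3714 lower and 3149 higher, and quantile normalization 3287 and 3494. Estimates that were not called turned in sign: Alpl at -0.019 (median centring) and -0.013 (quantile), Vcan at 0.26 (mean of its probe sets), and, with a mouse left out, Alpl from -0.054 to 0.13, Sox2 from -0.86 to 0.47, Vcan from -0.15 to 0.13 and Rspo3 from -0.71 to 0.12. Crabp1 at 24 h against 6 and 12 h had an adjusted p of 0.0559 with no filter. With the replicate number as a block 9138 probe sets were called (3978 lower, 5160 higher) and the count of members lower stayed at 1. Arrays of the same number in the 2 cohorts deviated with correlations of -0.049, -0.125, 0.106 and 0.085 at 0, 6, 12 and 24 h. These values cannot tell whether equal numbers pair mice across the cohorts. Signal limits Sox2 and the further Hhip probe set, which lay under the floor on 5 and 4 arrays.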
